A study of Homo sapiens with 4 samples.

Results

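The genes described here are 38 protein-coding genes of the interferon response, among 19974 coding genes on chromosomes 1 to 22 and X of the RefSeq annotation of GRCh38.p14. They were taken by name as known interferon genes, by a rule that uses no measured value, though earlier results of these data were known when the list was made. All 38 symbols matched 1 coding gene each. The list holds 9 regulators, which are 8 interferon regulatory factors (IRFs) and STAT2, and 29 effector genes. Peaks came from CUT&Tag in NB4 cells, an established line of human acute promyelocytic leukemia in which PML is fused to RARA, the retinoic acid receptor alpha gene. In CUT&Tag an antibody on chromatin guides a transposase, and the fragments it cuts are sequenced. The series has 1 library with an antibody to PPARα, a nuclear receptor that senses fatty acids, 1 with an antibody to PML/RARA, and an IgG control library for each. The labels name no drug, dose or time, and the sources used here do not say which part of the fusion protein the PML/RARA antibody binds, so signal from unfused PML or RARA cannot be told apart from it. The 2 deposited peak lists were analysed, and IgG signal was not used here. Neither antibody has a replicate list and the read depth is unknown, so a missing peak means only that none was called.

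Type I interferon acts through a receptor and the JAK kinases on STAT2, which works in a complex with IRF9 that binds the interferon-stimulated response element in the promoters of effector genes. Other IRFs act before this step, as IRF3 and IRF7 do when RNA sensors detect a virus and the interferon genes are switched on, or beside it, as IRF1 and IRF2 do at the same elements. Effector proteins then cut, edit, trap or bind viral RNA and particles, and in promyelocytic leukemia several interferon genes are known to respond to retinoic acid.

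PML/RARA peaks lay at the ends of a share of interferon genes near that of coding genes in general, and PPARα peaks at a lower share whose interval includes the general one. A gene end here is a window of 1 kb on each side of either annotated end of a gene. PML/RARA peaks marked 21 of 38 genes (55.3%, 95% Clopper-Pearson interval 38.3 to 71.4), against 57.8% of all coding genes. PPARα peaks marked 8 of 38 (21.1%, 9.55 to 37.3), against 32.3% of all coding genes. All 8 also had a PML/RARA end peak, and ends with both antibodies made up 31.9% of coding genes. Among the 21 with a PML/RARA end peak PPARα was present at 8 (38.1%, 18.1 to 61.6). The share over all coding genes was 55.2%, which this interval includes. These intervals cover counting error over genes only, neighbouring genes can share a peak and are not independent, and with 1 list per antibody no test was made.

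Of the 8 genes with a PPARα end peak 5 were regulators, while of the 24 PPARα peaks in or within 20 kb of the members 11 lay around regulators and 13 around effectors. At gene ends PPARα marked 5 of 9 regulators (55.6%, interval 21.2 to 86.3) and 3 of 29 effectors (10.3%, 2.19 to 27.4). The regulator share lay above the 32.3% background and the effector share below it, and the effector interval ends under that background while the regulator interval includes it. When only starts listed by RefSeq were read, PPARα marked 2 of the 6 regulators with such a start, against 35.1% of coding genes, so the higher regulator share was not seen there. It rests on IRF2, IRF3 and IRF7, which have no listed start. IRF5 was counted at gene ends through a peak near its finish, and in the reading of starts through another peak at internal starts. PML/RARA marked 7 of 9 regulators (77.8%, 40.0 to 97.2) and 14 of 29 effectors (48.3%, 29.4 to 67.5), and both of these intervals include the 57.8% background. The highest-scoring PML/RARA end peak had a median fold enrichment of 14.1 over the 7 regulators and 7.67 over the 14 effectors, against 14.2 over the 11553 coding genes with such a peak. Fold enrichment is the authors' ratio of signal over the caller's background, and it ranks peaks only within 1 list. When only the 9819 PML/RARA peaks of highest −log10 q were kept, as many as in the PPARα list, 5 of 9 regulators and 2 of 29 effectors were left with a PML/RARA end peak, where 30.2% of coding genes had one. The 5 were IRF1, IRF2, IRF7, IRF9 and STAT2, and the 2 were IFI35 and BST2.

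**Figure D1:**
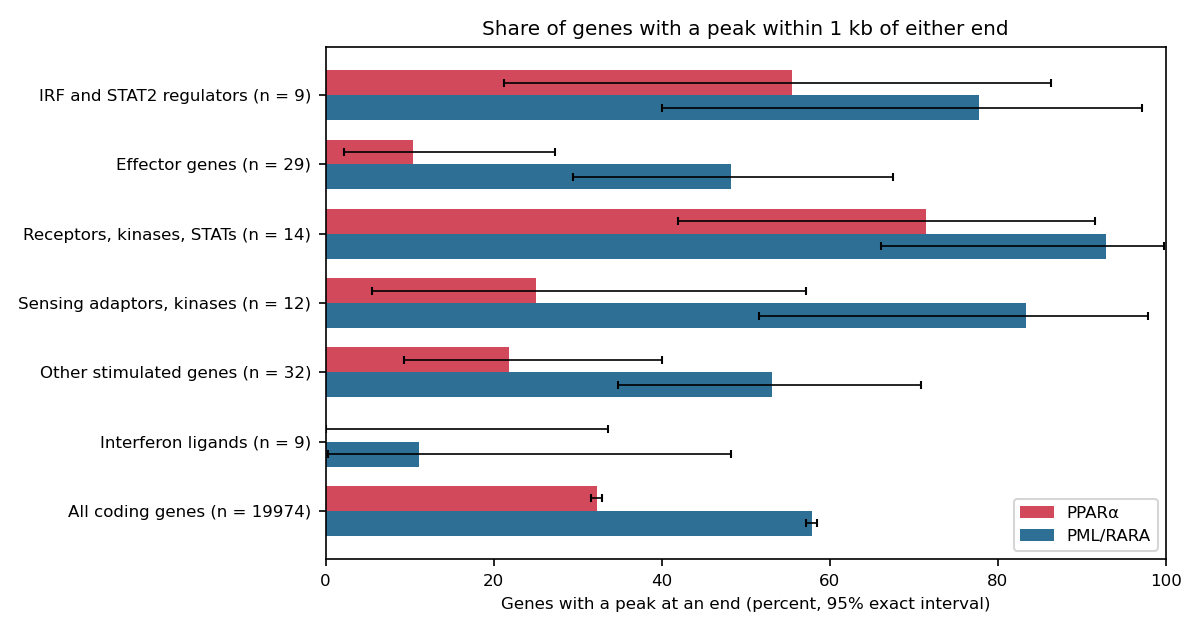
Share of genes with a peak within 1 kb of either end, in percent, for the regulators, the effectors, 4 other lists of interferon pathway genes and all coding genes, with PPARα in red and PML/RARA in blue. Error bars are 95% exact intervals over genes, and the PPARα bar of the regulators (55.6%) stands above that of all coding genes (32.3%) while that of the effectors (10.3%) stands below it.

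Promoter sequences were read where RefSeq lists a start, and only part of the peaks fall on them. The RefSeq promoter table for GRCh38.p14 lists a start for 28 of the 38 genes, 6 regulators and 22 effectors. IRF2, IRF3, IRF7, DHX58, OAS2, OASL, MX2, IFIT2, UBA7 and USP18 have no entry in it. Of the 28 windows of 250 bases before a start, 12 were touched by a PML/RARA peak and 2, STAT2 and BST2, by a PPARα peak. The 250 bases before the outermost listed start were searched on both strands for the core of the interferon-stimulated response element, which is GAAA, then any pair of bases, then GAAA, for the STAT site TTCNNNGAA, and for the nuclear receptor half-sites AGGTCA and AGTTCA. Matches may overlap, as those in ISG15 and BST2 do. The response element core was found in 12 of the 28 windows, all 12 of them effectors, against 2.71% of 15812 coding gene windows of the same length. PML/RARA peaks covered at least 1 base of 5 of these 12 windows and PPARα peaks of 1. The STAT site was found in 5 of 28 windows (17.9%, against 6.12% of all), those of IRF1, IRF9, OAS1, BST2 and IFI35. A match is a word in the sequence and was not tested for binding. Windows before starts further inside a gene, as RSAD2 and MX1 have, were not searched, nor were elements that depart from these exact words.

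The windows printed here are 2 with peaks of both antibodies (STAT2 and BST2), 4 with a PML/RARA peak alone (IRF1, ISG15, ISG20 and IFI6) and 2 with a response element core and no peak of either list (IFIT1 and IFI44L). Each reads 5′ to 3′ along the gene and ends on the base before the start, with response element cores, STAT sites and half-sites in capitals.
STAT2, chr12:56360108-56360357, minus strand: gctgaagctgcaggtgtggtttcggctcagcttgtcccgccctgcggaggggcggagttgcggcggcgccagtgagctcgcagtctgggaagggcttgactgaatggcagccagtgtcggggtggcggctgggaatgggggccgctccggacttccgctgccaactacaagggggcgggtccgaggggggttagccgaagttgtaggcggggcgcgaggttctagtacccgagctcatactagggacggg
BST2, chr19:17405631-17405880, minus strand: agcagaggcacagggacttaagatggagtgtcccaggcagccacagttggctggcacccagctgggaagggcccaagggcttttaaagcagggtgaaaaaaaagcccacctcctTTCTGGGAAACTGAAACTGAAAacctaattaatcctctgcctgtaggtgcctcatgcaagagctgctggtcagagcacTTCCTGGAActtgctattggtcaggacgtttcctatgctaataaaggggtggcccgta
IRF1, chr5:132490774-132491023, minus strand: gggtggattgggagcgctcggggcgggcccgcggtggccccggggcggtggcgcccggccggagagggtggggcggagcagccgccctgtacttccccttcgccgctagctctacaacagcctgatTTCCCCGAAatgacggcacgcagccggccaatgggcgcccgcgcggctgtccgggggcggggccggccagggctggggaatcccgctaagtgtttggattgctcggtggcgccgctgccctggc
ISG15, chr1:1013247-1013496, plus strand: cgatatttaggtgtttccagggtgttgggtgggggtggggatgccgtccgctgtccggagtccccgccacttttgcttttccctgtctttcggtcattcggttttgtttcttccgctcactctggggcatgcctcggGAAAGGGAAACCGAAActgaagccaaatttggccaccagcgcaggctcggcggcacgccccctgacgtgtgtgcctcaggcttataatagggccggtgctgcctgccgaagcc
ISG20, chr15:88638766-88639015, plus strand: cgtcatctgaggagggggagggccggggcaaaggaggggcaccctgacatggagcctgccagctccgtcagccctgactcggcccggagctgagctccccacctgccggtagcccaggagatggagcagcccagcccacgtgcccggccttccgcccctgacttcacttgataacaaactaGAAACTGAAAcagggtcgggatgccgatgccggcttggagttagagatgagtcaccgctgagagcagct
IFI6, chr1:27672193-27672442, minus strand: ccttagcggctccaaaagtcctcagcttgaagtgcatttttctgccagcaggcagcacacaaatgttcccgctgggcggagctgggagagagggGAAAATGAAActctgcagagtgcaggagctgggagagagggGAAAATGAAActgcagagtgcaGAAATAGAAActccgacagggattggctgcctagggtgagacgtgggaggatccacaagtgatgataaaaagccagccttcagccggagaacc
IFIT1, chr10:89392373-89392622, plus strand: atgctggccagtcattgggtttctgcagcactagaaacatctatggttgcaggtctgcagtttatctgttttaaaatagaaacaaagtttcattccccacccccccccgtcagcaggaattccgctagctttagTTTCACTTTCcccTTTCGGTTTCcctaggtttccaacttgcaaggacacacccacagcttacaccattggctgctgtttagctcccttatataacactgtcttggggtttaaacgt
IFI44L, chr1:78620198-78620447, plus strand: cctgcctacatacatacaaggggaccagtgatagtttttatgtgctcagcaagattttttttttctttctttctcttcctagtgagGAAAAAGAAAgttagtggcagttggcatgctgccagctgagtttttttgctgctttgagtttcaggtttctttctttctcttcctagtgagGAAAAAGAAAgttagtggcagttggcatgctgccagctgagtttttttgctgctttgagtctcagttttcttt

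STAT2 had the PML/RARA end peak of highest fold among the 38 genes and none of the searched words in its window. BST2 holds a STAT site that runs into overlapping response element cores, followed by a second STAT site, and the first core spans bases −130 to −121 from the start. In ISG15 the first core lies at −113 to −104 and a second overlaps it, in ISG20 a single core lies at −69 to −60, and in IFI6 there are 3 cores, the first at −156 to −147. IRF1, which is without a response element core here, has a STAT site. The PML/RARA peaks covered all 250 bases of the STAT2, BST2, IRF1, ISG20 and IFI6 windows and 166 bases of the ISG15 window, and the PPARα peaks covered 250 bases at STAT2 and 98 at BST2. IFIT1 and IFI44L hold cores as well, 2 in each window, with 0 bases in a peak.

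The core was about as frequent in windows with a PML/RARA peak as in those without. It was found in 5 of 12 windows touched by a PML/RARA peak (41.7%) and in 7 of 16 without one (43.75%). The windows without a peak but with a core belonged to OAS3, IFIT1, IFIT3, IFIT5, IFI44, IFI44L and TNFSF10, though IFIT5 and TNFSF10 had a peak just inside the gene. Over all 429 coding gene windows with the core, 36.8% were touched by a PML/RARA peak and 19.1% by a PPARα peak, against 51.3% and 28.04% of all 15812 windows. Half-sites were found in 4 of the 28 windows (14.3%, against 16.8% of all), at IRF5, IRF9, OAS1 and ADAR. A PML/RARA peak touched the window of IRF9 alone among these 4. Direct repeats of the half-sites spaced by 1, 2 or 5 bases were found in 0 of the 28 windows, and in 6, 0 and 2 of the 15812. The ETS core CCGGAA was present in 2 of 28 windows, ADAR and RSAD2, against 19.2% of all. Neither of these 2 windows was touched by a peak. Over all coding genes the ETS core was in 29.3% of windows touched by a PML/RARA peak and 8.65% of those without one.

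CG dinucleotides were fewer in these windows than in coding gene windows in general. The median count in 250 bases was 9 over the 28 members, 6 over the 22 effectors and 19.5 over the 6 regulators. It was 17 over all coding genes, 22 over those touched by a PML/RARA peak and 7 over those without one. Among the members alone it was 9 in the 12 windows touched by a PML/RARA peak and also 9 in the 16 without one. RSAD2, with 36 before its outermost listed start, had the highest count of the 28. The window before its inner start was not read. Neither list had a peak within 1 kb of its starts. IFI44 and IFI44L had 0. BST2 had 2 and carried both antibodies, and IRF4 had 28 and no peak at its start. These are single genes, and a link between CG count and peaks was not tested.

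**Figure D2:**
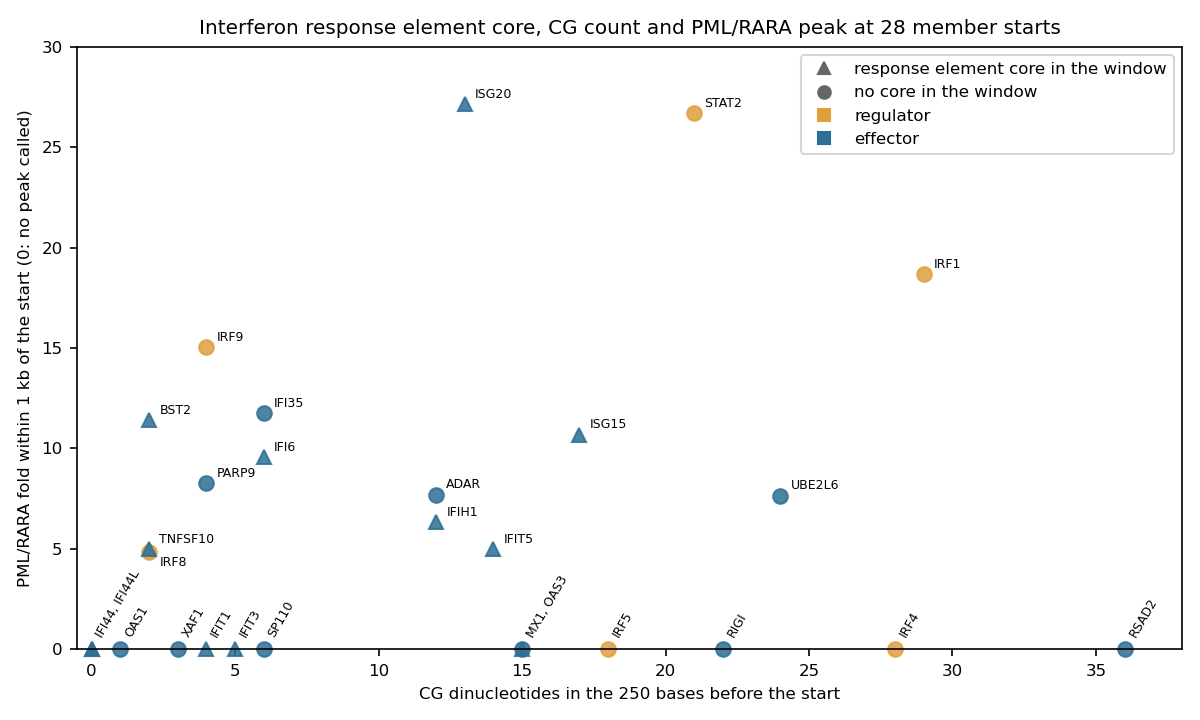
PML/RARA fold enrichment of the highest-scoring peak within 1 kb of the outermost listed start (y axis, 0 where none was called) against the number of CG dinucleotides in the 250 bases before it (x axis), for 28 genes. Triangles have the response element core, orange marks regulators and blue effectors, and windows with the core appear both at 0 (IFIT1, IFI44L) and at high fold (ISG20 at 27.2).

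Among the regulators, STAT2, the partner of IRF9 in the complex that binds the response element, carried peaks of both antibodies at its start. The PPARα peak on chromosome 12 (56359960 to 56360617) had a fold enrichment of 8.19 (−log10 q 9.73), with its summit 40 bases upstream of the start. The PML/RARA peak (56359955 to 56360506) had a fold enrichment of 26.7, above 98.4% of that list (−log10 q 177), with its summit 158 bases upstream. The summits were 118 bases apart. Both peaks also touched the end window of APOF, an apolipoprotein gene. IRF9, the DNA-binding subunit of the same complex, had a PML/RARA peak with its summit also 158 bases upstream (fold 15.1, −log10 q 48.3) and no PPARα peak at its ends. The 2 PPARα peaks within 20 kb of IRF9 lay at ends of its neighbours, at RNF31 and PSME2 (13.7) and at EMC9 (5.80).

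IRF1 and IRF2, which act at the same elements with largely opposite effect, differed in PPARα. IRF1 had 6 PML/RARA peaks in or within 20 kb of the gene and no PPARα peak in that stretch. Its end peak on chromosome 5 (132490474 to 132491106) had a fold enrichment of 18.7 (−log10 q 198), the highest −log10 q of any end peak of the 38 genes, and its summit lay 137 bases upstream of the start. Further IRF1 peaks lay 5169 bases upstream (fold 11.3) and 14966 bases beyond the other end of the gene (16.6). IRF2 carried both antibodies at its end of higher coordinate on chromosome 4, with a fold of 5.68 for PPARα (184474286 to 184475113) and 14.1 for PML/RARA (184474518 to 184474854). A further 6 PML/RARA peaks lay in the body of IRF2, with folds from 5.0 to 9.85.

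IRF3 and IRF7, which switch on interferon genes after RNA is sensed, both carried PPARα and PML/RARA at the end of higher coordinate. At IRF3 on chromosome 19 the PPARα fold was 6.34 (−log10 q 6.90) and the PML/RARA fold 9.77 (39.4), with summits 239 bases apart, and both peaks are shared with BCL2L12, an overlapping gene of the BCL2 family. At IRF7 on chromosome 11 the PPARα fold was 5.0 (4.60) and the PML/RARA fold 12.8 (98.6), with summits 117 bases apart, and CDHR5 shares these peaks. The surroundings of IRF3 were dense, with 3 PPARα and 12 PML/RARA peaks in the gene or within 20 kb, and the other 2 PPARα peaks lay at ends of neighbours, SCAF1 with RRAS (11.8) and PRMT1 (9.22). PPARα peaks at these neighbours had higher folds than the one at IRF3 itself.

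IRF5, which acts in Toll-like receptor signalling, carried its peaks inside the gene. Its PPARα peak of fold 8.43, the highest PPARα fold among the end peaks of the 38 genes, lay on chromosome 7 from 128948065 to 128949179. Its summit was 1210 bases inside the end of the gene, on a plus strand gene, so that it was counted through its edge and is a peak near the finish. The PML/RARA peak of fold 24.8 below it ended before the 1 kb window, so that IRF5 was counted for PML/RARA through a weaker neighbour (3.66). A second pair lay at internal starts that RefSeq lists for the gene, with a PPARα fold of 5.23 and a PML/RARA fold of 13.6, whose summit was 44 bases from the nearest such start.

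IRF8 and IRF4, the regulators of myeloid and lymphoid development, had no peak of either list at their annotated ends and no PPARα peak within 20 kb. IRF8 had 6 PML/RARA peaks in this stretch. A weak one lay 66 bases upstream of a listed start inside the annotated gene (fold 4.84, −log10 q 3.80), and the strongest lay 5982 bases beyond the finish (fold 18.7, −log10 q 104). IRF4 had 4, with folds from 4.196 to 8.35, of which 1 lay in the gene (5.71) and 3 beyond its finish.

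**Figure D3:**
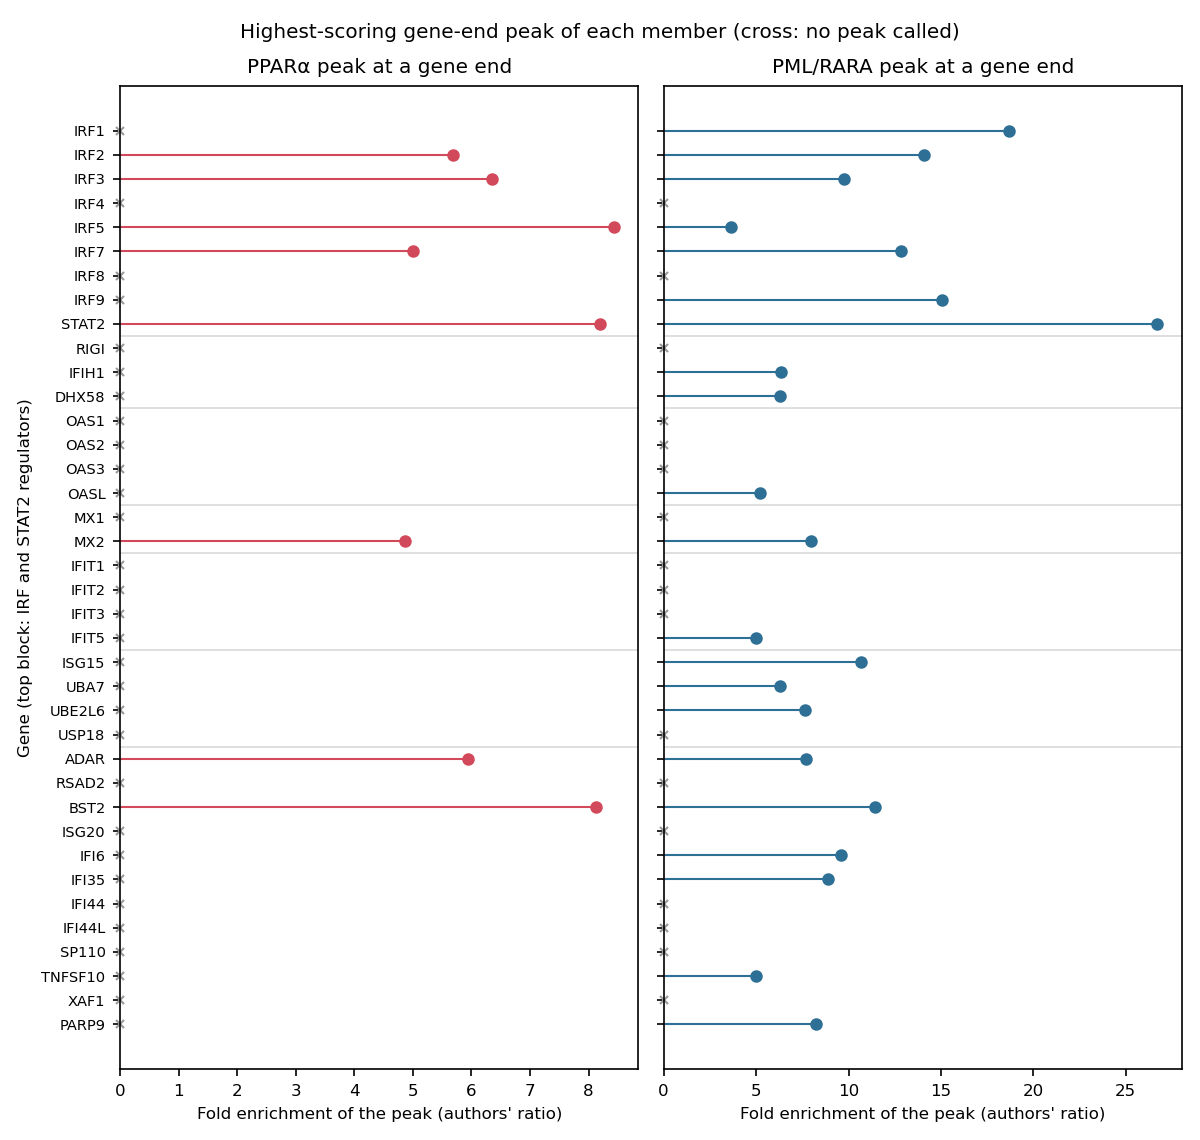
Fold enrichment of the gene-end peak with the highest −log10 q (x axes, the authors' ratio, on separate scales) for each of the 38 genes (y axis), for PPARα on the left and PML/RARA on the right, with crosses where no peak was called. The regulators fill the top block, where 5 of 9 have PPARα and 7 of 9 PML/RARA, and most OAS, MX and IFIT genes show crosses in both panels.

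The OAS and IFIT families each had 1 of 4 genes with a PML/RARA end peak and 0 of 4 with PPARα, against 57.8% and 32.3% of all coding genes, and 4 genes are too few to set these counts apart. The OAS enzymes make short adenylate chains that signal the presence of viral RNA, and OAS1, OAS3 and OAS2 lie next to each other on chromosome 12. Over this cluster with 20 kb on each side, 145 kb in all, there was no PPARα peak and 1 PML/RARA peak, in the body of OAS2 (fold 7.85, −log10 q 9.39). OASL, elsewhere on the chromosome, had a weak PML/RARA end peak (5.19) and no PPARα end peak. The IFIT proteins bind viral RNA, and IFIT2, IFIT3, IFIT1 and IFIT5 form a cluster on chromosome 10. Over 159 kb there was again no PPARα peak and 1 PML/RARA peak, 170 bases inside IFIT5 and also at an end of LIPA, the lysosomal acid lipase gene (5.0, −log10 q 4.09). Neither list had a peak in or within 20 kb of OAS1, IFIT2 or IFIT3. Of the 19974 coding genes, 9281 had no PPARα peak in that range and 4207 no PML/RARA peak. Peaks in stretches as long as these clusters were not counted elsewhere, so the clusters are not set apart from the genome.

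The MX genes encode dynamin-like proteins that block viral particles, and lie side by side on chromosome 21. MX2 carried a PPARα peak of fold 4.86 (−log10 q 3.67) and a PML/RARA peak of fold 7.99 at its end of lower coordinate, with a stronger PML/RARA peak (12.1) in the body. MX1 had no peak in the gene, and the 3 PML/RARA peaks within 20 kb of it had folds from 3.50 to 4.70. The PPARα −log10 q at MX2 was the lowest of the 8 PPARα end peaks, and only 23.2% of the PPARα list ranked below it.

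**Figure D4:**
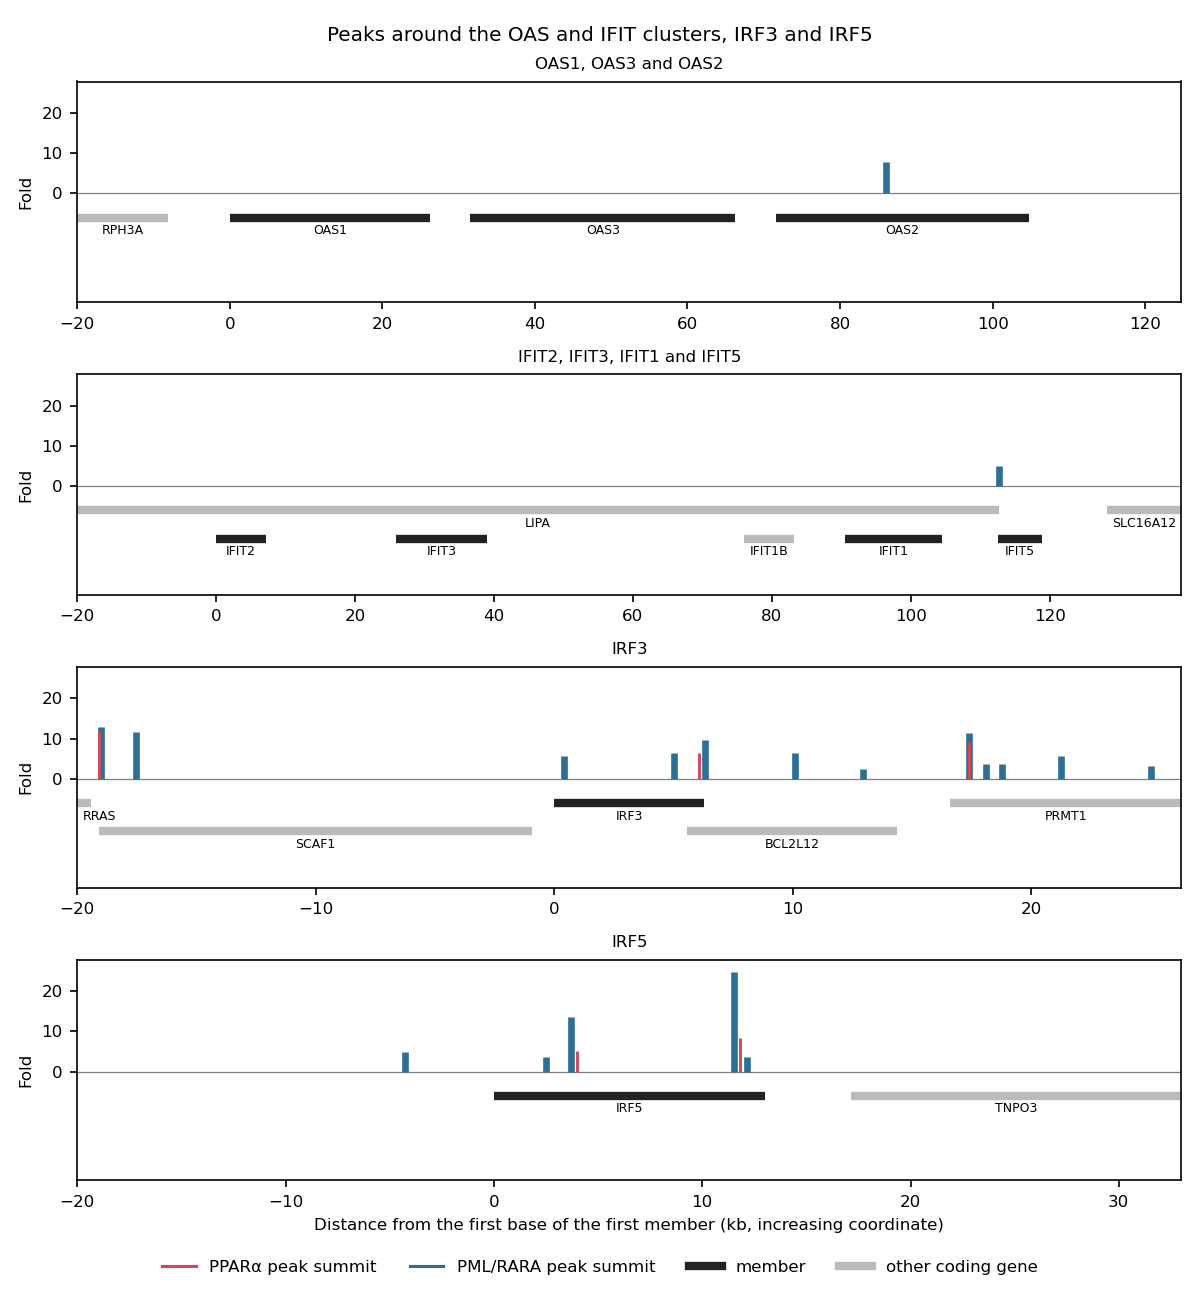
Peak summits around the OAS cluster, the IFIT cluster, IRF3 and IRF5, with fold enrichment on the y axis, distance from the first base of the first member in kb on the x axis, members as black bars and other coding genes in grey. The clusters show 1 PML/RARA peak each and no PPARα peak. IRF3 shows 3 PPARα and 12 PML/RARA peaks over a shorter stretch, and IRF5 shows 2 and 5. Stretches of equal length elsewhere were not counted.

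At gene ends the RNA sensors had PML/RARA at 2 of 3 and PPARα at 0 of 3, against 57.8% and 32.3% of coding genes. With 3 genes, neither count stands apart. DHX58, which encodes LGP2, had PML/RARA peaks at both ends (10.04 and 6.31) and a far stronger one in the body (fold 22.7, −log10 q 157). IFIH1, which encodes MDA5, had a pair of weak peaks at its start (6.34 and 4.21), each also in the end window of GCA. RIGI had no end peak, and a single PML/RARA peak of fold 3.57 lay 7110 bases beyond its finish. IFIH1 was the 1 sensor with a PPARα peak within 20 kb (5.57, 5468 bases beyond its finish), and no PML/RARA peak overlapped that peak.

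The ISG15 system couples a ubiquitin-like protein to targets, through the activating enzyme UBA7 and the conjugating enzyme UBE2L6, and USP18 removes it. PML/RARA marked 3 of these 4 genes and PPARα 0 of 4, which allows a share of up to 60.2% (upper bound of the exact interval). With 57.8% and 32.3% of all coding genes so marked, neither count stands apart. At ISG15 the summit lay 5 bases inside the start (fold 10.7, −log10 q 24.8). At UBE2L6 it lay 347 bases upstream (7.64, 9.11). At UBA7 the peak lay at the end of higher coordinate (6.29, 7.19), and the 2 PPARα peaks within 20 kb lay at ends of CDHR4 with INKA1 (4.75) and IP6K1 (4.31). USP18 had no peak in or within 20 kb of the gene. RefSeq also places the pseudogene USP41P, a copy of USP18, on chromosome 22, and the sources used here do not say how reads from near-identical copies were handled, so the empty result at USP18 is uncertain.

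Among the other effectors, BST2 and ADAR carried both antibodies. BST2 encodes tetherin, which holds budding virus at the cell surface. Its PPARα peak on chromosome 19 (17405257 to 17405728) had a fold enrichment of 8.13 (−log10 q 9.95), with the summit 159 bases inside the gene. Its PML/RARA peak was 1605 bases wide (17405179 to 17406783; fold 11.4, −log10 q 89.1), with the summit 286 bases upstream of the start, 445 bases from the PPARα summit. MVB12A shares both. ADAR, the enzyme that edits adenosine to inosine in double-stranded RNA, had a pair of peaks at each of its main groups of starts. At the outer start the PPARα fold was 5.95 and the PML/RARA fold 7.70. At the start 19200 bases into the gene the folds were 5.68 and 14, with both summits inside that start. The PML/RARA peak was thus stronger at the inner start and the PPARα folds were alike, at −log10 q of 5.14 and 5.07.

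ISG20, an RNA exonuclease, had the highest PML/RARA fold of any peak at a listed start of the 28 genes (27.2, −log10 q 146). The summit lay 162 bases upstream of the start, which is 3384 bases inside the annotated gene, so ISG20 was not counted among genes with an end peak. A PPARα peak of fold 6.61 lay at −17890 bases from that start, over a PML/RARA peak of fold 20.3. IFI6, a mitochondrial survival protein, and IFI35 had PML/RARA peaks with summits 130 and 74 bases upstream of the start (9.58 and 11.8). A PPARα peak of fold 4.56 lay 6813 bases beyond the finish of IFI6, over a PML/RARA peak of fold 11.7. IFI35 had another PML/RARA peak at its finish (8.91, −log10 q 56.3), shared with VAT1. PARP9, the ADP-ribosyltransferase partner of DTX3L, shared its PML/RARA peak with the divergent DTX3L (8.25). TNFSF10, which encodes the death ligand TRAIL, had a weak peak at its start (5.0, −log10 q 4.09) and a stronger one in the body (12.5, −log10 q 20.48).

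RSAD2, which encodes viperin, XAF1, a proapoptotic gene, and SP110, a nuclear body gene, had no end peak, and only PML/RARA peaks within 20 kb, at RNF144A for RSAD2 (7.67), 2764 bases upstream of XAF1 (6.73) and beyond the finish of SP110 (8.86 and 6.80). IFI44 and IFI44L had no peak within 20 kb. With OAS1, IFIT2, IFIT3 and USP18 they make up the 6 genes without any peak of either list in this range. All 6 are among the 29 effectors. Of these effectors 79.3% had a peak of either list there, against 79.6% of all coding genes, so this count lay near the background.

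**Figure D5:**
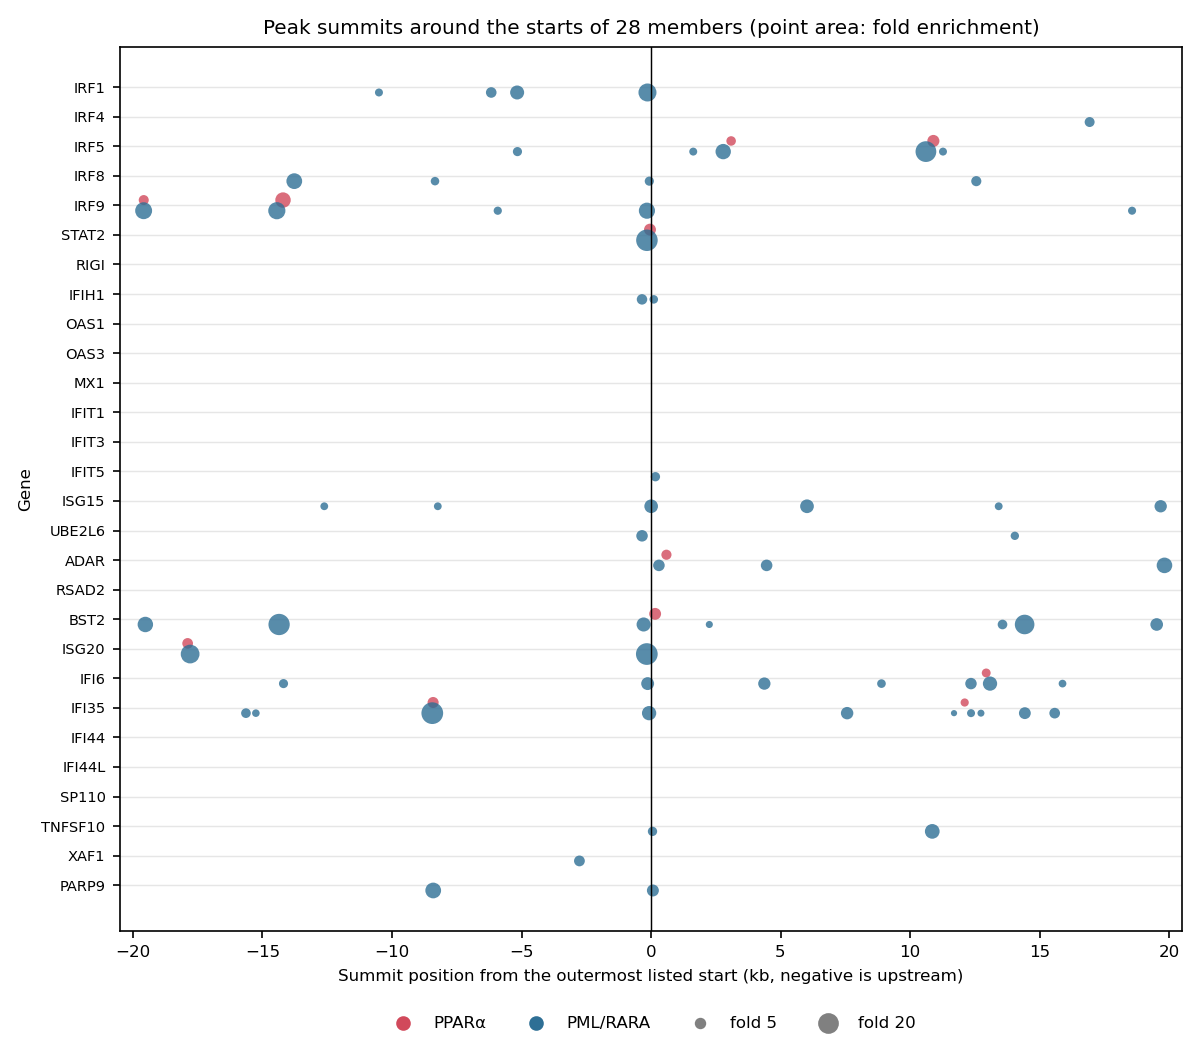
Position of each peak summit from the outermost listed start, in kb along the gene and up to 20 kb away, for the 28 genes with a listed start (y axis), with PPARα in red, PML/RARA in blue and point area in proportion to fold. PML/RARA summits line up just upstream of the start at IRF1, IRF9, STAT2, ISG20, IFI6 and IFI35, and the rows of RIGI, OAS1, OAS3, MX1, IFIT1, IFIT3, RSAD2, IFI44, IFI44L and SP110 are empty.

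Within the wider range, PML/RARA peaks lay in or within 20 kb of 32 of 38 genes (84.2%, interval 68.7 to 94.0), against 78.9% of all coding genes, and PPARα peaks of 16 (42.1%, 26.3 to 59.2), against 53.5%. For PML/RARA these were 9 of 9 regulators and 23 of 29 effectors, and for PPARα 6 of 9 and 10 of 29. The range held 138 distinct PML/RARA peaks and 24 PPARα peaks. Of the 24 PPARα peaks, 22 overlapped a PML/RARA peak by at least 1 base (91.7%, interval 73.0 to 99.0), as 90.1% of the whole PPARα list did. The 2 alone were those beyond the finish of IFIH1 and near VAT1, within 20 kb of IFI35 (3.87). Of the 14 PPARα peaks outside the genes and their end windows, 10 had the summit within 1 kb of an end of another coding gene. Among these genes were RPL27, a ribosomal protein gene, and KPNA1 beside PARP9 (8.33). The PPARα summit at RPL27 lay 8413 bases before the start of IFI35 (PPARα 7.09, PML/RARA 27.2). Of the 86 PML/RARA peaks so placed, 25 were at another coding gene's end. The same shares were not counted over each whole list, so these counts describe only the peaks around the members.

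Genes that act before and around the members were read from lists of the interferon pathway. The receptors, their kinases and STAT partners had PPARα at 10 of 14 (71.4%, interval 41.9 to 91.6) and PML/RARA at 13 of 14 (92.9%, 66.1 to 99.8). Of all coding genes 32.3% and 57.8% had them, both under these intervals. The intervals cover counting error over genes only. The list was chosen with earlier results known, it holds genes that share a peak, and no test was made. Examples are IFNAR1, a subunit of the type I receptor (PPARα fold 13.5, PML/RARA 27.9), the kinase JAK2 (11.6 and 13.7), IFNGR1 (10.5 and 22.5), STAT3 (9.45 and 30.4), SOCS1, a feedback inhibitor (7.44 and 12.9), TYK2 (5.86 and 21.7) and IFNGR2 (5.84 and 10.4). IFNAR2 and IL10RB share their peaks (4.88 and 18.6). JAK1, SOCS3 and PIAS1 had PML/RARA end peaks alone, and IFNLR1 had none. Adaptors and kinases of nucleic acid sensing had PML/RARA at 10 of 12 (83.3%, 51.6 to 97.9) and PPARα at 3 (25%, 5.49 to 57.2), and these intervals include the shares of all coding genes. The 3 were TLR9 (7.65), STING1 (5.22) and CGAS (4.45), with no end peak of either list at TLR3 or TLR7.

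Of a further 32 interferon-stimulated genes, PML/RARA marked 17 (53.1%), against 57.8% of all coding genes, and PPARα 7 (21.9%, interval 9.28 to 40.0), against 32.3%, so both counts lay near the background. The 7 were HERC5, the ISG15 ligase (7.04), SAMHD1 (5.75), NMI (5.31), PARP12 (5.31), GBP2 (5.03), ZC3HAV1 (4.96) and LGALS9 (3.81). Genes with no end peak of either list included SAMD9, SAMD9L, GBP1, GBP3, GBP4, GBP5, CMPK2, EPSTI1, IFI16, IFI27, PARP14, SP140, TRIM22 and CXCL10. Of 9 interferon ligand genes, PPARα marked 0, which allows a share of up to 33.6% (upper bound of the exact interval), and PML/RARA 1, IFNA2 (4.28).

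The PPARα list had 9819 peaks and the PML/RARA list 45988 on the chromosomes analysed, with median widths of 503 and 241 bases. As a check of the labelled cell type, PML/RARA peaks lay at the ends of 5 of 7 promyelocyte and granulocyte genes and 0 of 3 erythroid genes, and also at 3 of 4 lymphoid and 1 of 3 hepatocyte genes, against 57.8% of all coding genes, so end peaks alone did not separate the lineages. PPARα peaks lay at 1 of 7, 0 of 3, 1 of 4 and 0 of 3, against 32.3%. Expression was not measured, and how the peaks relate to RNA levels of these genes was not tested.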

How the data were processed

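The deposited files are 2 narrowPeak lists, 1 per antibody, tied to their samples by the antibody in the file name. Per the submitters' processing notes the build is hg38, and Bowtie2 2.2.9, SAMtools, MACS 1.4.2 and bedtools were used, with no role, order or setting given. For each peak the authors deposited the fold enrichment (a linear ratio), a p-value and a q-value as −log10, a display score, which is 10 times the −log10 q cut to a whole number in nearly every peak, and the summit as an offset from the start. Use of IgG as control and treatment of duplicates are not given in the sources used here.

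Peaks on chromosomes 1 to 22 and X were kept, and 10 peaks of PPARα and 33 of PML/RARA elsewhere were left out. Gene ends came from the RefSeq gene table and starts, strands and promoter bases from the RefSeq promoter table, both of GRCh38.p14. Neither gives exons, so exons, introns and transcript ends were not separated. A gene carried a peak when at least 1 base lay within 1 kb of either end. Of several such peaks the text gives that of highest −log10 q. Intervals are 95% Clopper-Pearson (scipy 1.17.1) and cover counting error only. The overlap search was tested on simulated data. Every member is named. Of the other pathway lists the rule names at most 8 genes with PPARα end peaks, by −log10 q, and the genes without end peaks of either list, while JAK1, SOCS3, PIAS1, IFNAR2, IL10RB and IFNA2 were named after their values were seen. Members, lists and words searched were chosen with earlier results of these data known. Results for some genes of these lists are not reported here. No test was made, since each antibody has 1 list.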

Additional observations from a re-analysis of the deposited data

How the results depend on the processing

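Of 62 values under other settings, 51 stayed within 1.5 times the value reported and 11 did not. Shortening the PML/RARA list to the PPARα number left 7 members with a PML/RARA end peak, 2 of them effectors, and 4 with both antibodies. It left 17 members with a PML/RARA peak in the gene or within 20 kb. Of all coding genes 30.2% then had a PML/RARA end peak. Their shares for both antibodies and for the wider range were not counted at that length. Reading only listed RefSeq starts gave 4 members with PPARα, 4 with both and 2 regulators with PPARα, because only 28 members, 6 of them regulators, have a start. The share of coding genes with PPARα was then 35.1%, so the 2 of 6 regulators were near it, and in the 250 bases before the start PPARα touched 1 of 6 regulator windows (16.7%) against 28.04% of all. Within those 28 both rules counted 4 for PPARα, though IRF5 was counted through a different peak under each. PML/RARA went from 14 to 16 with IRF8 and ISG20. Windows of 5 kb gave 6 effectors with PPARα in place of 3, where 38.6% of coding genes had one. With −log10 q of at least 5, 10 members had PPARα in the gene or within 20 kb, and 14 of the 14 PPARα peaks left overlapped PML/RARA. Summits within 200 bases of each other held for 12 of 24 PPARα peaks. For this count and those under that −log10 q limit, no share over all coding genes or the whole PPARα list was taken. Under stricter limits on −log10 q or fold (5 for each), windows of 500 bases, or the summit in place of any base, the regulators with PPARα numbered 4 or 5 and the effectors 2 or 3. Depth is unknown, so a gene with no peak may lie under the detection limit, and the PPARα list is the shorter one. No paired analysis was possible because each antibody has 1 list.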
